A study of Homo sapiens with 6 samples.

Results

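Splicing factors and RNA helicases are the proteins that cut introns out of pre-mRNA and that unwind or remodel RNA. They were taken here by gene symbol: SNRP, SF3, PRPF and LSM symbols (core snRNP proteins), SRSF symbols (SR proteins), HNRNP symbols (hnRNPs), DDX and DHX symbols (helicases) and RBM symbols followed by a digit, S or X (RNA-binding motif genes). Of the 5117 genes in the table, 90 matched. They were 28 core snRNP proteins, 4 SR proteins, 10 hnRNPs, 29 helicases and 19 RNA-binding motif genes. In GENCODE release 29, 187 protein-coding genes match the same pattern, and the other genes of the pattern have no row and were not analysed here. RNA came from HMC3, an established human microglial cell line labelled WT, grown in MEM with serum and antibiotics. The 3 libraries of the first group are labelled CM with C1s (C1s-CM), where C1s is a protease that starts the classical route of complement activation. The other 3 received control CM without C1s and are titled FLAG. The labels give neither a treatment time nor the cells that made the CM, and do not say whether the 3 libraries of a group are separate cultures. The p-values therefore rest on the spread among these libraries, which may be technical.

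The spliceosome assembles on each intron from small nuclear ribonucleoproteins, or snRNPs, each an RNA with a ring of Sm or LSM proteins and its own partners. U1 marks the 5′ splice site, U2 with the SF3A and SF3B proteins marks the branch point, and the tri-snRNP of U4, U5 and U6 brings the catalytic core, in which PRPF8 is the scaffold. SR proteins mostly promote the use of an exon, while hnRNPs coat pre-mRNA and often block or bend that choice. DDX and DHX helicases spend ATP to open or release RNA at defined steps of splicing, and others of the family work in ribosome assembly, export, translation and decay. The RNA-binding motif genes share an RNA recognition domain rather than a role. Many genes of these families carry exons whose inclusion sends the mRNA to decay, a form of self-control that gene-level counts do not show.

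The table holds only genes that passed the authors' adjusted p of 0.05, about 40.7% of the genes they adjusted over, so every gene described here had been selected for a difference on the same libraries. Its counts summed to between 12730766 and 14961744 per library, a part of each library and not its depth. Within the table, the log2 fold change ran with transcript GC content (Spearman rho 0.85 across 5112 genes, which share the same 6 libraries). The 13 mitochondrially encoded genes with a row of the RNA quality list rose and MALAT1, a nuclear RNA, fell. Their summed level was 16812 to 17327 scaled CPM in C1s-CM and 14084 to 14291 in control CM. Of 20 microglia markers 1 has a row, and of 14 mesenchymal or pericyte markers 5 have one (COL1A1, PDGFRB, THY1, TAGLN and FN1), with a summed level of 23486 to 24054 scaled CPM in C1s-CM against 18987 to 20065. Most of that sum and of its difference was FN1, with a mean of 17554 scaled CPM against 13718, and of these 5 genes 4 rose and 0 fell, or 2 and 1 with total counts as the only scaling. The part of RNA quality, and of the mesenchymal markers, in the values below was not tested.

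Levels are scaled CPM, counts relative to the table's total (CPM) after TMM scaling, which sets libraries to a common scale by trimmed mean ratios. Differences are C1s-CM against control CM on the log2 scale with their standard error, and "rose" and "fell" mean an adjusted p of at most 0.05 by the quasi-likelihood test of edgeR, adjusted by Benjamini-Hochberg over all tested genes. Of the 90 members, 87 passed, 37 higher and 50 lower. In the whole table of selected genes 99.4% passed, 50.9% higher and 48.5% lower, so the number of members called says nothing of its own. All members lay apart between the groups except SF3B3 and HNRNPL, that is 88 of 90 with no overlap of the libraries, where the whole table had 97.2%. The members that missed the threshold were SF3B2 (adjusted p = 0.056), SF3B3 (0.054) and HNRNPL (0.071). In bulk RNA, less RNA per cell and fewer cells with the RNA cannot be told apart. The changes were small, with a median size of 0.28 on the log2 scale and a range from -0.93 for DDX60 to 0.37 for SF3B5. In the authors' deposited table the log2 fold change is positive for 40 members and negative for 50, the same sign as in the edgeR fit for all 90.

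The 5 classes leaned differently. Core snRNP proteins had 16 higher and 10 lower, with a median log2 fold change of 0.14. All 4 SR proteins fell, with a median of -0.32. Among the hnRNPs 3 rose and 6 fell (median -0.17), among the helicases 13 rose and 16 fell (median -0.19), and among the RNA-binding motif genes 5 rose and 14 fell (median -0.38). All tested genes had a median of 0.08. With offsets for GC content and transcript length, described below, the class medians were near 0: 0.010 for core snRNP proteins, 0.032 for SR proteins, -0.022 for hnRNPs, 0.025 for helicases and -0.049 for RNA-binding motif genes. With the longest transcript they were -0.0095, 0.049, 0.16, 0.023 and -0.057 in that order. No test between classes was made, and the classes also differ in GC content, with class medians of 53.5% for core snRNP proteins, 41.7% for SR proteins, 43.5% for hnRNPs, 44.9% for helicases and 41.6% for RNA-binding motif genes.

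**Figure D1:**
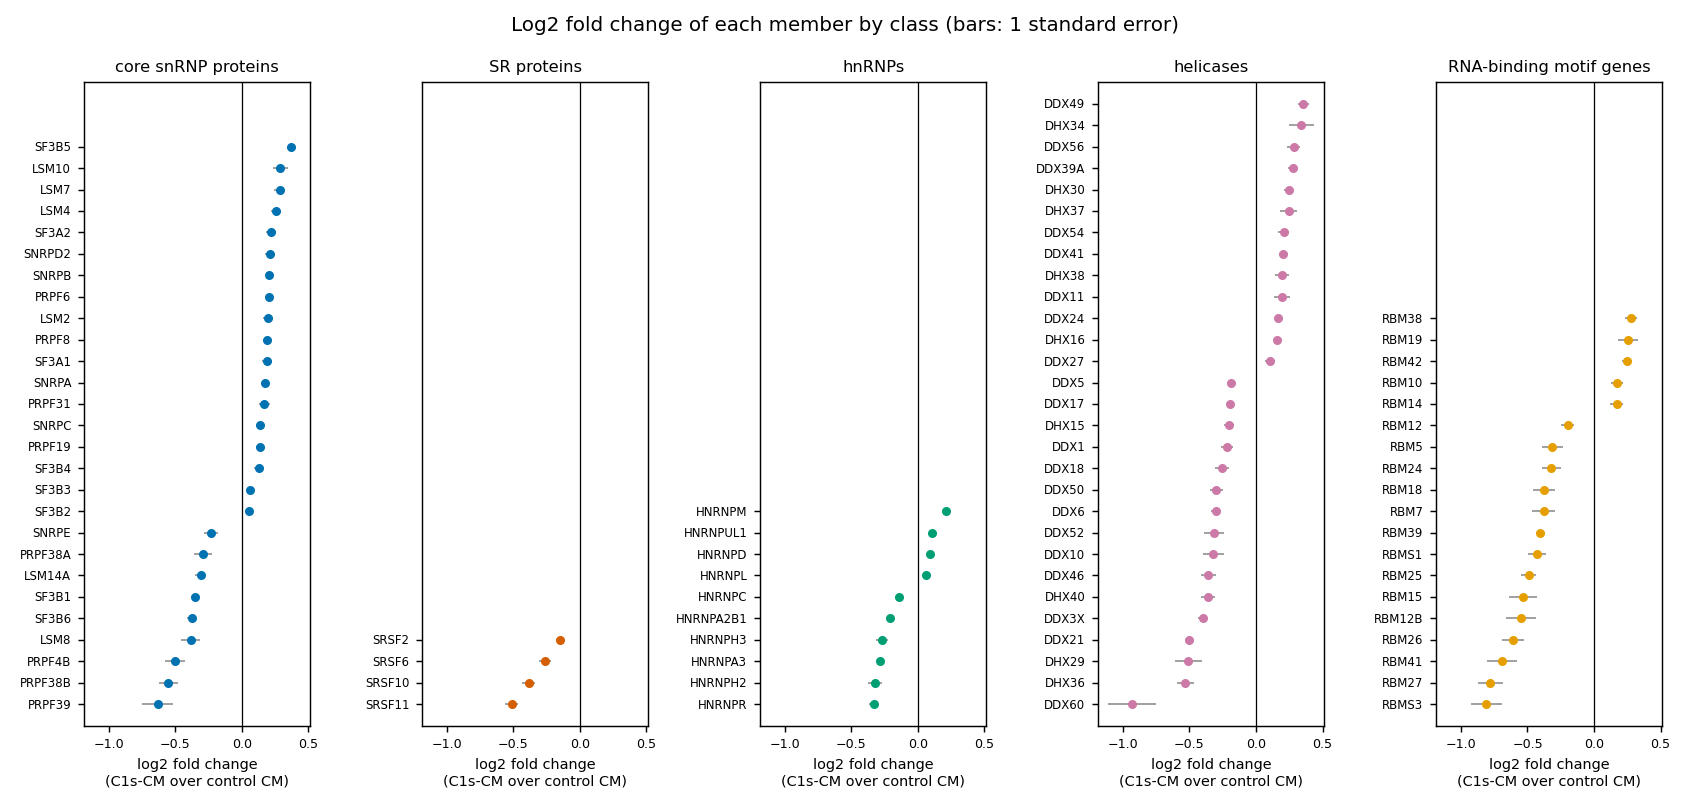
Log2 fold change of C1s-CM against control CM (horizontal axis) for 89 of the 90 genes, 1 panel per class with genes ordered by their value. Points are genes, bars are 1 standard error, and values right of 0 are higher in C1s-CM: no SR protein lies there, and the extremes are DDX60 at -0.93 and SF3B5 at 0.37.

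Summed over a class, core snRNP mRNA was at 6459, 6745 and 6656 scaled CPM in the C1s-CM libraries and 6248, 6083 and 6078 in the controls. It was the only class of the 5 with a higher scaled sum in C1s-CM. SR proteins summed to 351, 345 and 343 against 414, 422 and 424. The hnRNPs summed to 3148, 3187 and 3174 against 3356, 3401 and 3393. For helicases the sums were 3030, 3048 and 3094 against 3173, 3233 and 3220. RNA-binding motif genes came to 910, 896 and 913 against 955, 984 and 984. Every class sum lay apart between the groups, but the sum of all 90 did not, at 13898, 14222 and 14179 against 14146, 14124 and 14099. This depends on the scaling. As a plain share of the table's counts the 90 genes took 1.33% to 1.36% in C1s-CM and 1.47% to 1.48% in control CM, and with total counts as the only scaling 18 members were higher and 51 lower, where 26.1% of all tested genes were higher and 49.2% lower, 75.3% in either direction. Core snRNP proteins, whose scaled sum was higher in C1s-CM, took 0.620% to 0.643% of the table's counts there and 0.635% to 0.647% in control CM, so the groups overlapped without TMM. That scaling moved the median of all genes by -0.13, and under it the positive difference of HNRNPD, HNRNPL, HNRNPUL1, SF3B2, SF3B3 and DDX27 turned negative. Of the core snRNP proteins, SNRPA, SNRPC, SF3A1, SF3B4, PRPF19, PRPF31 and LSM2 kept a positive value there but no longer passed. The same held for DHX16, DHX37, DHX38, DDX11, DDX24, DDX54, RBM10, RBM14 and RBM19.

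The Sm proteins form the ring around the snRNA. SNRPD2, the most abundant member per kilobase of transcript (779 scaled CPM per kilobase, mean of 6 libraries), stood at 694, 797 and 770.5 scaled CPM in C1s-CM and 684, 635 and 631 in control CM. Its lowest C1s-CM library, 694, was just above its highest control, 684, and the rise was 0.21 ± 0.038. SNRPB, the Sm B protein and the second most abundant at 504 per kilobase, had 609, 625 and 636 scaled CPM in C1s-CM and 546, 537 and 536 in control CM, a rise of 0.21 ± 0.027 with the groups well apart. SNRPE, the Sm E protein, went the other way. It had 68.4, 78.3 and 79.4 scaled CPM in C1s-CM and 89.4, 88 and 88 in control CM, and the change of -0.23 ± 0.051 came with C1s-CM replicate 1 lowest of all 6. SNRPC (423 per kilobase) and SNRPA, both of the U1 snRNP, rose by 0.14 ± 0.030 and 0.18 ± 0.032. With total counts as the only scaling neither of these U1 genes passed (0.015 and 0.051). In level per kilobase over the 6 libraries, SNRPD2 (699.9 to 885) stood clear of SNRPB (465 to 551), and SNRPB of SNRPC (399 to 456), whereas SNRPC overlapped the next gene, HNRNPC (372 to 427).

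The U2 branch-point machinery split. SF3B5, a small intronless subunit of SF3B (ENSG00000169976, GRCh38 chromosome 6, 144094881 to 144095573, minus strand), had 255, 265 and 249 scaled CPM in C1s-CM and 204, 198 and 192 in control CM. Every C1s-CM library was above every control, and the rise of 0.37 ± 0.033 was the largest of all 90 members. SF3B6, another subunit of SF3B (ENSG00000115128, chromosome 2, 24067584 to 24076443, minus strand), had 167, 174 and 163 scaled CPM in C1s-CM and 218, 221 and 216 in control CM and fell by 0.38 ± 0.033. SF3B1, the large scaffold that holds the branch helix, had 170.2, 177 and 176 scaled CPM in C1s-CM and 226, 215 and 226 in control CM, and its change was -0.35 ± 0.033. SF3A1, SF3A2 and SF3B4, other U2 proteins, rose by 0.19 ± 0.039, 0.22 ± 0.035 and 0.13 ± 0.034. SF3B2 and SF3B3, with differences of 0.054 ± 0.027 and 0.061 ± 0.030, did not pass. With the offsets described below, SF3B2 passed as lower with the representative transcript (-0.11) and as higher with the longest (0.27). In all, 4 of the 8 SF3 genes rose and 2 fell.

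Of the 4 tri-snRNP proteins 3 rose and 1 fell, where 50.9% of the whole table rose and 48.5% fell. PRPF8, the catalytic scaffold (chromosome 17, 1650629 to 1684882, minus strand), had 745, 765 and 764 scaled CPM in C1s-CM and 682, 635 and 672 in control CM, a rise of 0.19 ± 0.029 with no overlap. PRPF6 and PRPF31, which hold the U4, U5 and U6 particles together, rose by 0.21 ± 0.030 and 0.17 ± 0.043. PRPF38A, which acts at spliceosome activation, fell from 46.8, 44.5 and 44.3 scaled CPM in control CM to 38.2, 33.7 and 39 in C1s-CM, a change of -0.29 ± 0.065. With the offsets described below PRPF31 turned negative without passing (-0.053), and PRPF38A passed as higher (0.21). Of the 6 LSM genes 4 rose and 2 fell. LSM2, LSM4 and LSM7, of the ring on U6, rose by 0.20 ± 0.037, 0.25 ± 0.031 and 0.28 ± 0.042, whereas LSM8, the subunit that makes that ring nuclear, had 28.3, 29.3 and 27.9 scaled CPM in C1s-CM and 39, 34.9 and 37.7 in control CM and a change of -0.38 ± 0.069. LSM10, of the U7 snRNP that processes histone mRNA, rose by 0.29 ± 0.055. LSM14A, a protein of cytoplasmic P-bodies that is no part of a snRNP, changed by -0.31 ± 0.039.

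The deepest falls of the class were among the other PRPF genes, of which 4 of 5 fell. PRPF39, a U1-associated protein, was low at 7.32, 8.62 and 7.64 scaled CPM in C1s-CM and 11.3, 12.5 and 12.8 in control CM and changed by -0.63 ± 0.12. PRPF38B had 22.8, 22.6 and 23.6 scaled CPM in C1s-CM and 34, 34 and 33.2 in control CM, with a change of -0.55 ± 0.071. PRPF4B, a kinase of tri-snRNP proteins, changed by -0.50 ± 0.072. PRPF19, a ubiquitin ligase of the activated spliceosome, rose by 0.14 ± 0.032.

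All 4 SR proteins with a row fell. SRSF11 had 61.1, 58.1 and 58 scaled CPM in C1s-CM and 81.8, 84.9 and 85.7 in control CM, a change of -0.51 ± 0.048. SRSF10, whose activity as a repressor depends on its phosphorylation, had 58, 57.7 and 58.6 scaled CPM in C1s-CM and 76.9, 73.7 and 77 in control CM and a change of -0.38 ± 0.048. SRSF6 had 72.3, 73.6 and 73 scaled CPM in C1s-CM and 84.4, 89.4 and 88.1 in control CM, with a change of -0.26 ± 0.045. SRSF2, an exon activator, had 159, 155 and 153 scaled CPM in C1s-CM and 171, 174 and 173 in control CM and the smallest change of the class, -0.15 ± 0.033. In each of the 4 genes all C1s-CM libraries lay under all controls. SRSF1, SRSF3, SRSF4, SRSF5, SRSF7 and the other SR genes have no row, so nothing is shown of the class as a whole. The arginine-serine stretch that defines these proteins is written with different codons in each, and it is shown because the differences below follow base composition. Capitals mark the longest run of arginine and serine codons in the representative transcript, with the flanking codons in lower case (5′ to 3′, GRCh38, GENCODE 29). The printed SRSF2 window, flanks included, lies at chr17:76736386-76736806 on the minus strand and is joined across exons 1 and 2. The SRSF6 window lies at chr20:43460219-43460590 on the plus strand across exons 4 and 5, and the SRSF11 window at chr1:70239453-70239509 on the plus strand in exon 8.
SRSF2: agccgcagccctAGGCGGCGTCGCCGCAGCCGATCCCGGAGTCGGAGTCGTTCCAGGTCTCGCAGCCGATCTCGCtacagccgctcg
SRSF6: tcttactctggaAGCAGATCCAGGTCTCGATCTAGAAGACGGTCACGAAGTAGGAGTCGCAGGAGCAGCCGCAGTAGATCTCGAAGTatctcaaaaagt
SRSF11: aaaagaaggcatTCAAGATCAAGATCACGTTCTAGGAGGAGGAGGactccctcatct
G and C made up 71.4% of the capital bases in SRSF2, 54.7% in SRSF6 and 48.5% in SRSF11, or 16 of 33. SRSF10, whose run is 8 codons long, was at 50%, or 12 of 24. The log2 fold changes of these 4 genes had the same order, but the runs of SRSF10 and SRSF11 were nearly equal. With the offsets described below the order was another, with SRSF6 at 0.23, SRSF2 at 0.066, SRSF11 at -0.0011 and SRSF10 at -0.21. GC content of the whole representative transcript was 45.6% in SRSF2, 39.6% in SRSF6, 43.8% in SRSF10 and 38.3% in SRSF11. By that measure SRSF10 stood above SRSF6 although it fell more. Whether the runs relate to the changes was not tested, and 4 genes are too few to show it.

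Of the 10 hnRNPs, which package nascent RNA, 3 rose and 6 fell. The abundant packaging proteins fell. HNRNPC, which binds uridine tracts, had 665, 662 and 637 scaled CPM in C1s-CM and 703, 727 and 732 in control CM and a change of -0.14 ± 0.028. HNRNPA2B1 had 425, 446 and 438 scaled CPM in C1s-CM and 514, 498 and 503 in control CM (change -0.21 ± 0.028). HNRNPA3, its close relative, had 448, 435 and 431 scaled CPM in C1s-CM and 523, 544 and 533 in control CM (change -0.28 ± 0.028). With offsets from the longest transcript these 3 genes turned and passed as higher (HNRNPC 0.34, HNRNPA2B1 0.28, HNRNPA3 0.27), and with the representative transcript none of the 3 passed (0.019, -0.017 and -0.062). HNRNPH2 and HNRNPH3, which bind G-rich sequence, changed by -0.32 ± 0.054 and -0.27 ± 0.045, and HNRNPR by -0.33 ± 0.034, which also passed as higher (0.30) with offsets from the longest transcript. HNRNPM rose by 0.21 ± 0.035, from 139, 139.7 and 134 scaled CPM in control CM to 156, 163 and 159.5 in C1s-CM, and HNRNPUL1 rose by 0.11 ± 0.028, a direction that turned with total counts as the only scaling (-0.017). HNRNPD, also known as AUF1 and a binder of AU-rich elements in mRNA, had 388, 384 and 406 scaled CPM in C1s-CM and 365, 377 and 362 in control CM and rose by 0.094 ± 0.029; with total counts it was -0.031, and without C1s-CM replicate 3 the rise was 0.069 and no longer passed (adjusted p = 0.0527, edgeR). HNRNPL, at 341, 365 and 365 scaled CPM in C1s-CM and 341, 332 and 354 in control CM, had overlapping groups and did not pass.

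Helicases divided almost evenly, as did the whole table (50.9% higher and 48.5% lower), and the split ran through each role. Of the 8 splicing helicases 4 rose and 4 fell, of the 11 ribosome assembly helicases 6 rose and 5 fell, and of the 10 others 3 rose and 7 fell. The codons that encode the signature Asp-Glu-Ala-Asp or Asp-Glu-Ala-His of the ATPase site are shown for some members that rose and some that fell. Capitals mark those codons, with flanking codons in lower case, 5′ to 3′ (GRCh38, GENCODE 29). DDX56 lies at chr7:44572600-44572653 (minus strand, exon 4), DDX41 at chr5:177513721-177513774 (minus, exon 10), DHX37 at chr12:124971347-124971400 (minus, exon 8) and DHX38 at chr16:72104054-72104107 (plus, exon 14), all higher in C1s-CM. Lower in C1s-CM were DDX5 at chr17:64503224-64503277 (minus, exon 7), DDX18 at chr2:117822171-117822224 (plus, exon 7), DDX46 at chr5:134790490-134790543 (plus, exon 13) and DHX15 at chr4:24556302-24556355 (minus, exon 4).
DDX56: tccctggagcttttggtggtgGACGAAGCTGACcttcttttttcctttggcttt
DDX41: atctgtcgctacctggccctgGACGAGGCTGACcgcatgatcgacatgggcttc
DHX37: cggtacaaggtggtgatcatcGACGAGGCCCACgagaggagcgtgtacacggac
DHX38: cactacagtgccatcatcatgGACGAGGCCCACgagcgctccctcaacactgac
DDX5: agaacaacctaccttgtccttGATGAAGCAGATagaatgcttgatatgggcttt
DDX18: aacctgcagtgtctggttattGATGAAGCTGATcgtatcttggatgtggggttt
DDX46: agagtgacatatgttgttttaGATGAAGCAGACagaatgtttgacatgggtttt
DHX15: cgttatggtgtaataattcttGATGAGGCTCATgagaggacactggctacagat
The Asp-Glu-Ala-Asp codons were found once in 14 of 20 DDX members. The count of these 4 codons ending in G or C had a median of 2 in the 6 genes with a positive difference (range 1 to 3) and of 0 in the 8 with a negative one (range 0 to 2). The Asp-Glu-Ala-His codons were found in 5 of 9 DHX members, with 2 to 4 codons ending in G or C in the 3 higher genes and 1 in each of the 2 lower ones. These members were shown for their direction and their codons together, so the listed sequences are a description. Members not printed blur the contrast. DDX17, which fell, has the same 4 codons as DDX56, which rose. DDX54, which rose, has 1 codon ending in G or C, as have DDX6 and DDX46, which fell.

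Among splicing helicases, DDX39A, an mRNA export helicase with a near copy in DDX39B, had 146, 148 and 156 scaled CPM in C1s-CM and 119, 127 and 124 in control CM and rose by 0.28 ± 0.038. DDX41 rose by 0.20 ± 0.033. DHX38 and DHX16, which drive the later remodelling of the spliceosome, rose by 0.20 ± 0.054 and 0.16 ± 0.035. DDX46, which acts at branch-point selection, had 57.1, 54.2 and 51 scaled CPM in C1s-CM and 66, 73.1 and 68.8 in control CM and changed by -0.36 ± 0.055. DHX15, which takes the spent spliceosome apart, had 141, 146 and 140.3 scaled CPM in C1s-CM and 154, 170.1 and 167 in control CM and a change of -0.20 ± 0.038. The paralogs DDX5 and DDX17, which also serve as transcription coregulators, fell alike by 0.19 ± 0.030 and 0.19 ± 0.029. DDX17 had 311, 315 and 325 scaled CPM in C1s-CM and 352, 369 and 366 in control CM, with every control above every C1s-CM library. With offsets from the longest transcript DDX5 (0.17) and DDX17 (0.13) both passed as higher. With the representative transcript DDX17 passed as lower (-0.27) and DDX5 did not pass (0.028), so the call of DDX17 depends on the transcript chosen.

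Ribosome assembly helicases work in the nucleolus. DDX49 had 112, 112 and 114 scaled CPM in C1s-CM and 92.8, 86.7 and 84.2 in control CM and, at 0.36 ± 0.043, the largest rise of the class. DDX56 had 84.1, 94.4 and 86.6 scaled CPM in C1s-CM and 74.5, 69.3 and 74 in control CM (rise 0.28 ± 0.050). DHX37 and DDX54 rose by 0.25 ± 0.063 and 0.21 ± 0.044. DDX21, a nucleolar helicase of rRNA transcription, had 139, 135 and 146 scaled CPM in C1s-CM and 200.3, 200.4 and 194 in control CM, 1.41-fold lower at -0.50 ± 0.036. DDX10, DDX18, DDX50 and DDX52 fell by between 0.26 and 0.32. DDX27 rose by 0.11 ± 0.040, but with total counts its value was -0.019, and it missed the threshold with DESeq2, without C1s-CM replicate 2 (0.072) and without control CM replicate 3 (0.082).

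The remaining helicases include the largest fall among the 90. DDX60, an antiviral factor (ENSG00000137628, chromosome 4, 168216293 to 168318807, minus strand), was the least abundant member per kilobase and had 3.44, 2.59 and 4.26 scaled CPM in C1s-CM and 7.66, 5.73 and 6.23 in control CM. The 3 C1s-CM libraries were all under the controls at this low level, with a change of -0.93 ± 0.18. DHX36, which resolves G-quadruplexes, had 32.6, 29.7 and 31.7 scaled CPM in C1s-CM and 45.8, 44.7 and 45.1 in control CM and a change of -0.53 ± 0.063. DHX29, a translation initiation helicase, changed by -0.51 ± 0.10. DDX3X, an abundant helicase of translation initiation, had 206, 219 and 219 scaled CPM in C1s-CM and 278, 292 and 279 in control CM and changed by -0.40 ± 0.033. DDX6, a helicase of mRNA storage and decay, had 122, 123 and 126 scaled CPM in C1s-CM and 150.5, 146 and 160.0 in control CM (change -0.30 ± 0.038). DHX34, which acts in nonsense-mediated decay, was low at 22.8, 19.2 and 18.8 scaled CPM in C1s-CM and 15.4, 16 and 16.6 in control CM and rose by 0.34 ± 0.094. DHX30, of mitochondrial ribosome assembly, rose by 0.25 ± 0.037.

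**Figure D2:**
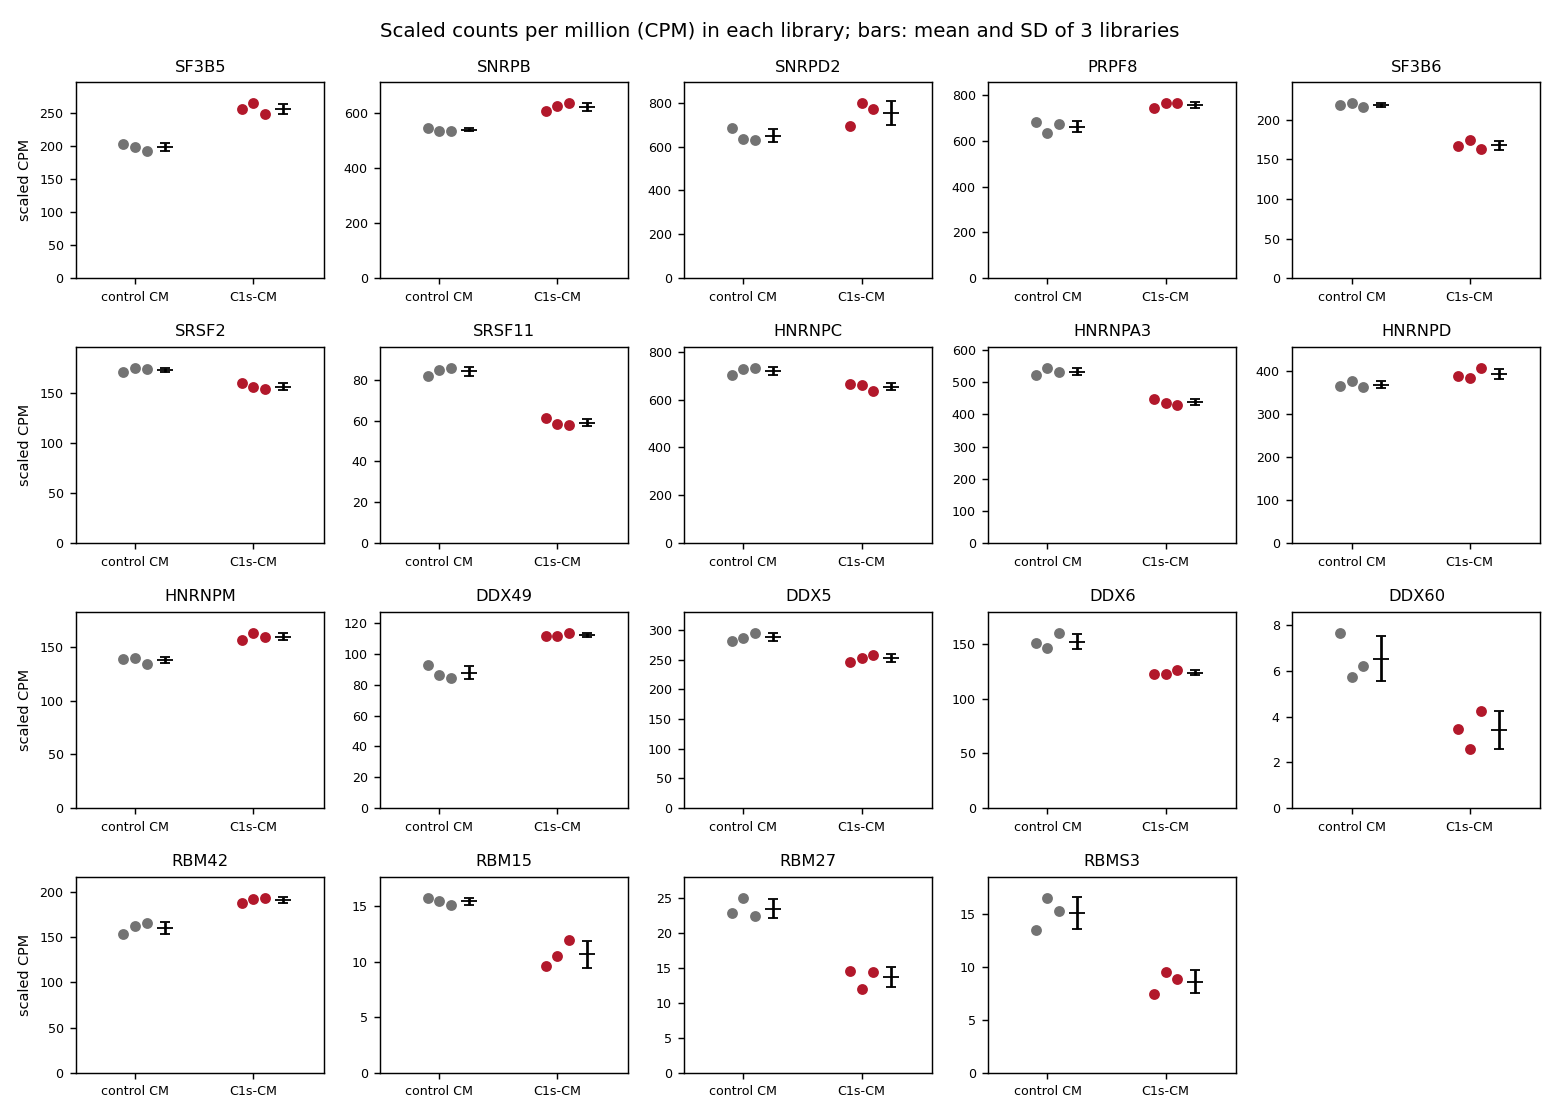
Scaled CPM (vertical axis, from 0, 1 panel per gene) of 19 members chosen after their values were seen, with control CM and C1s-CM on the horizontal axis. Points are the 3 libraries of a group and bars their mean and SD: SF3B5 sits higher in every C1s-CM library (249 to 265 against 192 to 204) and SRSF11 lower (58 to 61.1 against 81.8 to 85.7).

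Most RNA-binding motif genes fell. RBMS3, an mRNA stability factor (ENSG00000144642, chromosome 3, 28574791 to 30010391, plus strand), had 7.47, 9.53 and 8.81 scaled CPM in C1s-CM and 13.5, 16.5 and 15.3 in control CM and a change of -0.81 ± 0.12. Its relative RBMS1 changed by -0.43 ± 0.069. RBM27 and RBM26, a paralog pair of nuclear RNA surveillance, had 14.5, 12 and 14.5 scaled CPM in C1s-CM and 22.8, 25 and 22.5 in control CM for the first and 15.5, 16.5 and 17.8 scaled CPM in C1s-CM and 25.5, 25.5 and 25.1 in control CM for the second. They fell by 0.78 ± 0.094 and 0.61 ± 0.084. RBM39, a U2AF-like splicing factor and one of the more abundant of the class, had 126, 121 and 127 scaled CPM in C1s-CM and 164, 165 and 166 in control CM and changed by -0.40 ± 0.035. RBM41 changed by -0.69 ± 0.12, RBM12B by -0.55 ± 0.11, RBM25 by -0.49 ± 0.060 and RBM12 by -0.20 ± 0.050. RBM15, which recruits the m6A methyltransferase (ENSG00000162775, chromosome 1, 110338506 to 110346681, plus strand), had 9.59, 10.5 and 12 scaled CPM in C1s-CM and 15.8, 15.5 and 15.1 in control CM and a change of -0.53 ± 0.11. Of the genes that rose, RBM38, a p53 target that binds mRNA, had 108, 102 and 101 scaled CPM in C1s-CM and 84, 89 and 82.8 in control CM and rose by 0.28 ± 0.044. RBM42 had 187, 192 and 193 scaled CPM in C1s-CM and 153, 163 and 166 in control CM, with a rise of 0.25 ± 0.035. RBM19, of ribosome assembly, rose by 0.25 ± 0.074 and RBM14 by 0.17 ± 0.049. RBM5 and RBM10, related regulators of alternative exons, differed in sign: RBM5 had 21.1, 24.2 and 23.8 scaled CPM in C1s-CM and 29.1, 26.9 and 29.9 in control CM (change -0.31 ± 0.079) and RBM10 78.3, 81.1 and 80.0 scaled CPM in C1s-CM and 72.5, 69.1 and 71 in control CM (rise 0.17 ± 0.046). Of 9 listed paralog groups with 2 genes in the table, HNRNPR with SYNCRIP (no member by its symbol) included, 8 had the same sign in both genes, and RBM5 with RBM10 was the exception. With the offsets described below, DDX5 (0.028) and DDX17 (-0.27) differed in sign. So did HNRNPH3 (0.12) and HNRNPH2 (-0.028), RBM12 (0.29) and RBM12B (-0.017), and PRPF38A (0.21) and PRPF38B (-0.15). RBM5 (-0.26) and RBM10 (-0.055) were then both negative, as were HNRNPA2B1 with HNRNPA3, RBM26 with RBM27 and RBMS1 with RBMS3.

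Direction among the members tracked base composition. Across the 90 genes the log2 fold change and the GC content of the representative transcript had a Spearman rho of 0.84 and a Pearson r of 0.86, and across all tested genes the rho was 0.85. Of the 39 members at or above 50% GC, 37 had a positive difference, and of the 51 below it 3 did. The same shares of the whole table were 98.0% of 2525 genes and 6.15% of 2587. The exceptions among members were DDX17 and RBM15 (GC-rich and lower) and DDX24, HNRNPD and SF3B3 (GC-poor and higher). Members with a positive difference had a median GC content of 57.0% against 40.8%, a median third-codon-position GC of 69.3% against 37.3%, and a median 3′UTR of 319.5 bases against 846.5. They had a median of 14 exons against 13.5, so exon number did not separate them. An annotated nonsense-mediated decay transcript was found in 22 of 40 higher and 28 of 50 lower members. In all, 55.6% of members had one, where 45.6% of the protein-coding tested genes did. Of the 14 members on chromosome 19, 13 were higher, and of all 435 protein-coding tested genes there 91.5% were. What made the trend in the whole table was not tested.

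**Figure D3:**
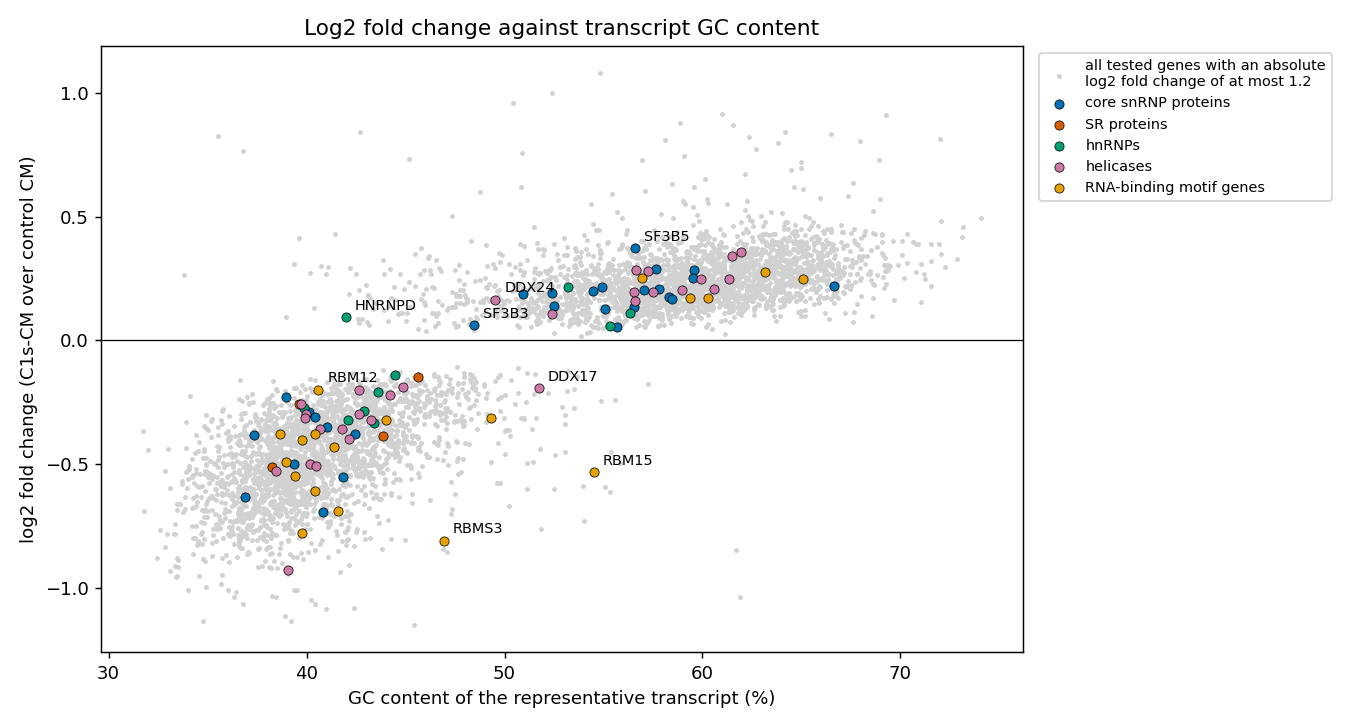
GC content of the representative transcript in percent (horizontal axis) against the log2 fold change of C1s-CM against control CM (vertical axis), for the 90 members in colour by class over the tested genes in grey (those with an absolute change of at most 1.2). The members follow the grey cloud (rho 0.84 and 0.85), with RBM15 below it and HNRNPD above it.

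To see which members lay off this trend, the fit was repeated with an offset per gene and library for GC content and transcript length. With them 16 members were higher and 11 lower, where 14.4% and 11.2% of all genes were, 25.6% in either direction. With the longest transcript of each gene instead, 22 were higher and 10 lower, where 14.4% and 12.3% of all genes were, 26.6% in either direction. Under both choices in the same direction there were 16 members, 13 higher and 3 lower, where 18.6% of all genes passed that rule, 10.5% higher and 8.14% lower. For 42 of the 90 the sign turned with the offsets, and for 19 it differed between the 2 choices of transcript. The offsets would also take out a biological difference that goes with GC content.

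Among the core snRNP proteins that passed under both choices, SF3B5 kept a positive difference (0.15 and 0.10 with the representative and the longest transcript), as did PRPF8 (0.20 and 0.17). SF3B3 was at 0.24 and 0.22, and SF3B1 (0.13 and 0.10), PRPF38A (0.21 and 0.18) and LSM14A (0.14 and 0.17) turned from lower to higher. SF3B6 stayed lower at -0.22 and -0.33. HNRNPD had the highest value of all 90 members under both choices. At a GC content of 42.0% it was not lower in C1s-CM, and its value was 0.47 ± 0.028 with offsets (adjusted p = 5.79e-12, edgeR) and 0.65 with the longest transcript. SRSF6 (0.23 and 0.21), DDX24 (0.19 and 0.15), DHX15 (0.15 and 0.34), DDX18 and DDX6 (0.21 each with the representative transcript) and RBM12 (0.29 and 0.27) were the other members higher. RBM15 was the lowest of the members that passed under both choices. At 54.5% GC it was lower in every C1s-CM library, and the offsets took it from -0.53 ± 0.11 to -0.68 and -0.73. RBM27 was the other lower one at -0.26 and -0.28. RBMS3 was at -0.74 with the representative transcript and at -0.19 with the longest, where it missed the threshold (adjusted p = 0.226, edgeR). In the offset fit, LSM14A no longer passed without C1s-CM replicate 3 (0.12). PRPF38A did not without C1s-CM replicate 3 (0.17), control CM replicate 2 (0.19) or control CM replicate 3 (0.19). RBM27 did not without C1s-CM replicate 2 (-0.18), control CM replicate 1 (-0.27) or control CM replicate 2 (-0.22).

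**Figure D4:**
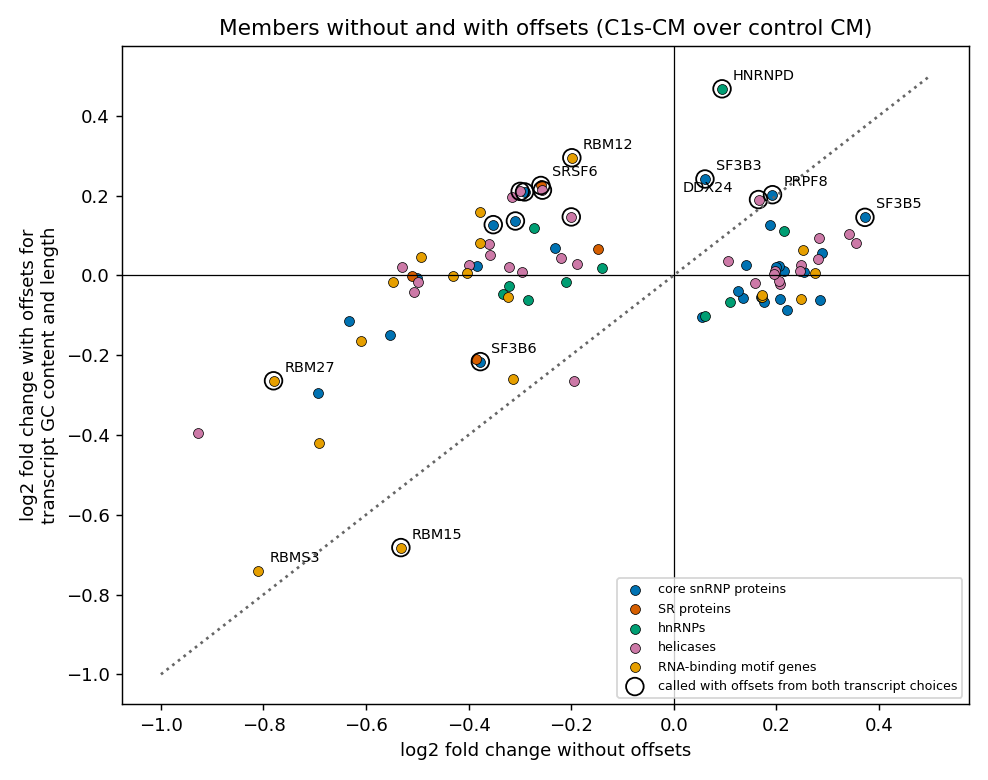
Log2 fold change without offsets (horizontal axis) against that with offsets for GC content and transcript length (vertical axis), 1 point per member, 3 libraries per group. The dotted line marks equal values, colours are classes, and circles mark members called under both transcript choices, with HNRNPD highest at 0.47 and RBM15 among the lowest at -0.68.

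Other genes of the pathway moved in the same mixed way, as did the whole table (50.9% higher and 48.5% lower). Of 60 other spliceosome proteins listed, 27 have a row, 12 higher and 15 lower (median -0.32). SNRNP25 of the minor spliceosome rose by 0.37 ± 0.033, PUF60 by 0.30 ± 0.030 and CD2BP2 by 0.28 ± 0.030. U2SURP, a U2-associated SR-related protein, fell by 0.62 ± 0.057, SCAF11 by 0.60 ± 0.059 and CDC5L by 0.42 ± 0.043. Of 66 listed regulators and assembly factors, 31 have a row, 10 higher and 20 lower (median -0.27). MBNL1, PTBP3 and QKI, regulators of alternative exons, fell by 0.69 ± 0.044, 0.58 ± 0.053 and 0.47 ± 0.040, and RALY, KHSRP and SRRM2 rose by 0.21 ± 0.027, 0.22 ± 0.032 and 0.21 ± 0.027. Exon junction, export and nonsense-mediated decay genes had 15 of 31 with a row, 8 higher, among them the export adaptor ALYREF (0.26 ± 0.029), and 7 lower, among them PNN (-0.48 ± 0.045) and THOC2 (-0.67 ± 0.083). Of 17 RNA helicases outside the DDX and DHX symbols 12 have a row, 4 higher and 8 lower, with EIF4A2 at -0.41 ± 0.031, MTREX at -0.54 ± 0.056 and UPF1 at 0.20 ± 0.036. With offsets the counts of these 4 lists were 5 higher and 3 lower, 5 and 4, 1 and 0, and 0 and 1. Of all genes 14.4% were higher and 11.2% lower in that fit. UPF1 is counted in both the nonsense-mediated decay list and the helicase list.

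Counts of some members are uncertain. GENCODE 29 names pseudogenes after 21 of the 90, among them 18 for SNRPC, 16 for HNRNPA3 and 9 each for HNRNPC and SNRPE, whose reads can be shared. DDX11 and DDX39A also have near copies. The counter's use of strand is not given in the sources used here, so reads of antisense and overlapping genes cannot be told apart.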

How the data were processed

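RNA from 6 HMC3 libraries, 3 per group, was compared. Per the submitters' processing notes, FastQC 0.11.9, Trim Galore 0.6.7, HISAT2 2.2.1 and DESeq2 1.40.2 were used with genome build GRCh38. The authors deposited unnormalized whole-number counts per gene. Per the file headers, the same table holds their log2 fold change and their p-value, raw and adjusted. The read counter and annotation are not stated there. All 5117 genes of the table passed the authors' adjusted p of 0.05, so TMM scaling and the offsets rest on selected genes.

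Counts were tested with edgeR 4.0.16 in R 4.3.3 (TMM scaling, filterByExpr, quasi-likelihood test, two-sided, group as the only term, Benjamini-Hochberg adjustment over 5116 genes, threshold 0.05). Each standard error was derived from the log2 fold change and the F value of its test. Alternatives were DESeq2 1.42.0, RLE size factors, total counts, no filter on low counts, a mean of at least 50 counts, a replicate block and each library left out. Offsets came from a loess fit (span 0.3) of log2 CPM on the GC content and length (log2) of a GENCODE 29 transcript, chosen by principal-isoform and support level, or the longest, over 5112 genes. The scripts were tested on simulated data. Library pairs within a group differed by more than sampling noise (chi-square per degree of freedom 2.02 to 4.96).

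The members, lists, roles and tests were chosen with earlier results of these data known. In each class the genes named are the 3 largest and 3 smallest log2 fold changes past the threshold, up to 3 with the smallest p with offsets, the 2 highest per kilobase and listed paralogs. In each other list they are the 3 with the smallest p in each direction. This gave 53 members, and the other 37 members were chosen after their values were seen. The offset fits with a library left out, and the check of members called under both transcript choices, were added after seeing the data. Some genes are not reported here.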

Additional observations from a re-analysis of the deposited data

How the results depend on the processing

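With DESeq2, RLE size factors, a mean of at least 50 counts, no filter on low counts and the replicate block, the 123 genes given with a value (90 members and 33 genes of the other lists) kept their direction and their side of the threshold, except DDX27, which DESeq2 did not call. When only total counts scaled the libraries, the number of higher genes was 18 for all members, 9 for core snRNP proteins, 1 for hnRNPs, 6 for helicases and 2 for RNA-binding motif genes, and these turned negative: DDX27 -0.019, HNRNPD -0.031, HNRNPL -0.065, HNRNPUL1 -0.017, SF3B2 -0.071, SF3B3 -0.065. With each library left out in turn, the members higher ran from 36 to 40 and the lower were 50 in every case, and with offsets 13 to 18 were higher and 9 to 12 lower. Among the 90 members, HNRNPD lost its call without C1s-CM replicate 3 and DDX27 without C1s-CM replicate 2 or control CM replicate 3.

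With offsets for GC content and transcript length, higher and lower genes numbered 16 and 11 for all members, 7 and 3 for core snRNP proteins, 1 and 1 for SR proteins, 2 and 1 for hnRNPs, 5 and 1 for helicases and 1 and 5 for RNA-binding motif genes. Differences that turned, genes of the other lists included, were DDX1 0.043, DDX10 0.020, DDX18 0.21, DDX3X 0.025, DDX41 -0.014, DDX46 0.050, DDX5 0.028, DDX50 0.0079, DDX52 0.20, DDX54 -0.022, DDX6 0.21, DHX15 0.15, DHX16 -0.019, DHX36 0.022, DHX40 0.080, HNRNPC 0.019, HNRNPH3 0.12, HNRNPL -0.10, HNRNPUL1 -0.067, LSM14A 0.14, LSM7 -0.061, LSM8 0.025, PRPF19 -0.057, PRPF31 -0.053, PRPF38A 0.21, RBM10 -0.055, RBM12 0.29, RBM14 -0.049, RBM18 0.16, RBM25 0.047, RBM39 0.0047, RBM42 -0.060, RBM7 0.080, SF3A2 -0.086, SF3B1 0.13, SF3B2 -0.11, SF3B4 -0.038, SNRPA -0.067, SNRPB -0.059, SNRPE 0.069, SRSF2 0.066, SRSF6 0.23, ALYREF -0.0094, CDC5L 0.12, GJA1 0.11, MOV10 -0.022, QKI 0.10, RALY -0.079, SKIV2L -0.0092, SMG1 0.00066, THOC6 -0.056, THY1 -0.038, UPF1 -0.023. With the longest transcript the numbers were 22 and 10, 7 and 7, 1 and 0, 5 and 1, 8 and 0, and 1 and 2 in the same order of classes, and these turned: DDX10 0.17, DDX11 -0.017, DDX17 0.13, DDX18 0.21, DDX27 -0.024, DDX3X 0.12, DDX41 -0.018, DDX46 0.17, DDX5 0.17, DDX52 0.18, DDX54 -0.025, DDX6 0.19, DHX15 0.34, DHX16 -0.054, DHX36 0.0074, DHX38 -0.0070, DHX40 0.065, HNRNPA2B1 0.28, HNRNPA3 0.27, HNRNPC 0.34, HNRNPH3 0.040, HNRNPL -0.0026, HNRNPR 0.30, HNRNPUL1 -0.10, LSM14A 0.17, LSM2 -0.0048, LSM4 -0.014, LSM7 -0.053, LSM8 0.12, PRPF19 -0.095, PRPF31 -0.079, PRPF38A 0.18, PRPF4B 0.062, PRPF6 -0.018, RBM10 -0.060, RBM12 0.27, RBM14 -0.072, RBM18 0.13, RBM25 0.033, RBM38 -0.0086, RBM39 0.020, RBM42 -0.071, RBM7 0.20, SF3A2 -0.099, SF3B1 0.10, SF3B4 -0.094, SNRPA -0.092, SNRPB -0.068, SRSF10 0.073, SRSF11 0.025, SRSF6 0.21, ALYREF -0.0026, CDC5L 0.11, EIF4A2 0.11, GJA1 0.068, KHSRP -0.021, MOV10 -0.030, PTBP3 0.022, QKI 0.10, SKIV2L -0.017, THOC6 -0.074, THY1 -0.063, UPF1 -0.030. The offset values depend on the annotated transcript, which for DDX17 lacks a 3′UTR in the representative choice.

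The titles number the libraries 1 to 3 in both groups, but same-numbered libraries did not deviate together (correlations of their deviations across genes -0.13, -0.087 and -0.0031), so the numbers were not taken as pairs. With the replicate block 37 members were higher and 50 lower. With the block and offsets together the counts in each class equalled those with offsets alone, 16 higher and 11 lower in all (7 and 3, 1 and 1, 2 and 1, 5 and 1, 1 and 5), and the same genes turned with nearly the same values (DDX1 0.044, DDX10 0.019, DDX46 0.049, DHX36 0.021, DHX40 0.081, HNRNPUL1 -0.066, LSM7 -0.062, PRPF19 -0.058, RBM14 -0.050, RBM25 0.050, RBM39 0.0046, RBM42 -0.059, RBM7 0.079, SF3A2 -0.087, ALYREF -0.0097, MOV10 -0.023, SKIV2L -0.0094, SMG1 0.00029, THOC6 -0.055 differed slightly). Depth limits the low members: DDX60, at under 10 scaled CPM in every library, has the largest standard error of all, 0.18.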
